A study of Mus musculus with 6 samples.

Results

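The translation initiation factors were the genes whose symbol in the platform annotation begins with Eif and a digit, without the Eif4ebp genes, which encode inhibitors of eIF4E, and the Eif2ak genes, which encode kinases of eIF2. This gave 40 genes of the 16593 genes annotated on the array, read by 64 of its 25697 probes. A signal above background on at least 3 of the 6 arrays was found for 34 of the 40 members (55 probes) and for 8740 genes in all (12546 probes), and only these were tested. The rule uses the symbol alone.

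To follow these factors through muscle atrophy, mRNA levels were compared in the gastrocnemius muscle of adult male mice, 12 weeks of age, of which the sources used here name no genotype. A piece of 2 mm was taken out of the left sciatic nerve, and the muscle of that leg was the denervated sample 14 days later. The muscle of the right leg, whose nerve was left in place, was the control. Each of the 3 denervated and 3 control samples was read on 1 Illumina mouse bead array, and these shared 1 chip on which each group took its own run of positions, which means that group and position cannot be told apart. The number of mice is not given, and the p-values measure only the spread between these samples.

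Initiation is the step at which a ribosome is loaded onto an mRNA. The factor eIF2 brings the initiator tRNA to the small ribosomal subunit in a GTP-bound form, and eIF2B recharges eIF2 with GTP after each round. eIF3 is a large complex of many subunits that sits on the small subunit and links it to the mRNA. The eIF4 factors read the mRNA from its cap: eIF4E binds the cap, eIF4A is an RNA helicase that unwinds the leader, and eIF4B and eIF4H stimulate the helicase. eIF1, eIF1A, eIF5 and eIF5B act in start codon choice and subunit joining, and eIF6 keeps the large subunit from joining early. In skeletal muscle, protein synthesis and its control at initiation are closely tied to the gain and loss of muscle mass.

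More initiation factor mRNAs rose than fell after denervation. Of the 34 members tested, 15 were higher in denervated muscle (44.1%), 4 were lower (11.8%) and 15 did not pass the test (limma over all 12546 probes, Benjamini-Hochberg adjustment, threshold 0.05). Over all 8740 genes tested, 22.2% were higher and 21.6% were lower, so that 43.8% changed in either direction, against 55.9% of the members (19 of 34). Denervated and control samples had no overlap in signal for 26 members (76.5%), of which 21 were higher and 5 lower, and the same held for 55.0% of all genes. The median log2 fold change, denervated minus control, was 0.33 over the members, with quartiles of 0.07 and 0.66, and -0.00 over all genes, with quartiles of -0.35 and 0.34. The split between rises and falls moved with the scaling of the arrays. When the arrays were set to 1 median over all probes in place of quantile normalization, 21 members were higher and 2 lower, but the median of all genes was then 0.20 and 73.2% of all calls were rises. With the median taken over probes above background on all 6 arrays instead, 13 members were higher and 5 lower, with a median of all genes of -0.07 and 43.9% of all calls being rises.

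In the Eif3 group rises were more frequent than in the Eif2 and Eif4 groups under the main settings. Of its 10 members tested, 7 were higher, 1 was lower and 2 did not pass the test, and the median log2 fold change of the group was 0.47 (range -0.83 to 0.72). Among the 8 Eif2 members, which include the eIF2B subunits, 3 were higher, 1 was lower and 4 did not pass, with a median of 0.31 (range -0.45 to 0.97). Among the 10 Eif4 members tested, 3 were higher, 1 was lower and 6 did not pass, with a median of 0.26 (range -0.84 to 1.31). The Eif4 group thus spanned the widest range and the Eif3 group lay furthest from 0 as a whole. The 6 Eif1, Eif5 and Eif6 members tested comprised 2 that were higher, 1 that was lower and 3 that did not pass, with a median of 0.21. The counts of rises depended on the processing: over the 20 alternatives they ranged from 5 to 7 of 10 for Eif3, from 2 to 6 of 8 for Eif2 and from 2 to 5 of 10 for Eif4. With 1 median over all probes, 75% of the Eif2 members and 70% of the Eif3 members were higher. The order of these groups thus turned in this count, but not in their medians, which were 0.55 for Eif2 and 0.63 for Eif3. Under this scaling the median of all genes was 0.20. Of all genes tested 47.6% were then called, and 73.2% of these calls were rises. For Eif4 the count was 5 under 8 of the alternatives, among them no background correction, an offset of 50 and the authors' normalized values. Under the main settings, 22.2% of all genes tested were higher and 21.6% lower, with a median of -0.00. Beside this, 37.5% of the Eif2, 70% of the Eif3 and 30% of the Eif4 members were higher. These are descriptions of each group beside all genes, and the differences between the groups were not tested.

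**Figure D1:**
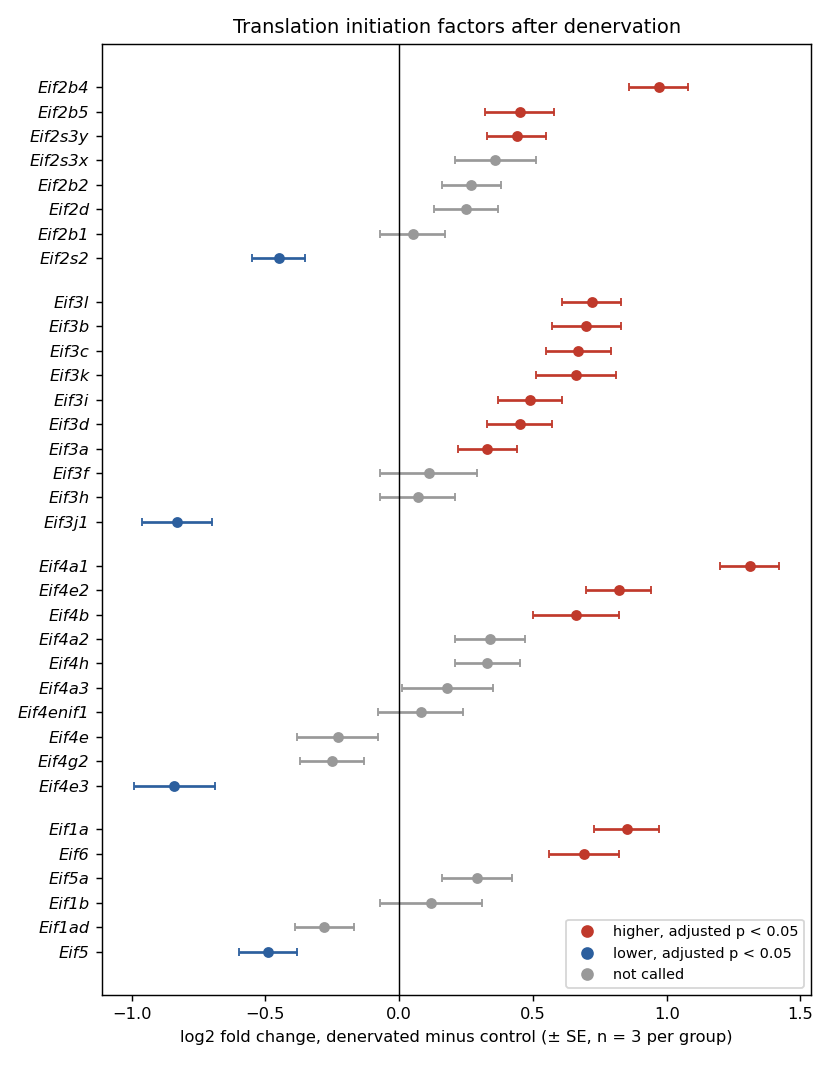
Log2 fold change of each of the 34 initiation factors tested (x axis, denervated minus control, n = 3 per group), ordered by size within the Eif2, Eif3, Eif4 and Eif1, Eif5 and Eif6 groups, with bars of ± 1 standard error and colour for members that were higher, lower or not past the adjusted p threshold. In every group most points lie to the right of 0 and 1 member is lower, at -0.45 for Eif2s2, -0.83 for Eif3j1, -0.84 for Eif4e3 and -0.49 for Eif5.

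The group medians were also followed on each array, as the median over genes of the log2 signal minus the control mean of the same gene. For Eif3 this median was 0.53, 0.48 and 0.40 after denervation and 0.02, -0.05 and -0.02 in the controls. The Eif2 median was 0.34, 0.31 and 0.29 in denervated against 0.04, -0.01 and 0.00 in control muscle. Eif4 stood at 0.11, 0.36 and 0.29 in denervated samples, with controls at 0.07, -0.03 and 0.05. No group median overlapped between denervated and control arrays, but the first denervated array lay close to the controls for Eif4. The median over all genes was 0.00 on each denervated array and 0.00 or 0.01 on the control arrays, which quantile normalization holds near 0.

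**Figure D2:**
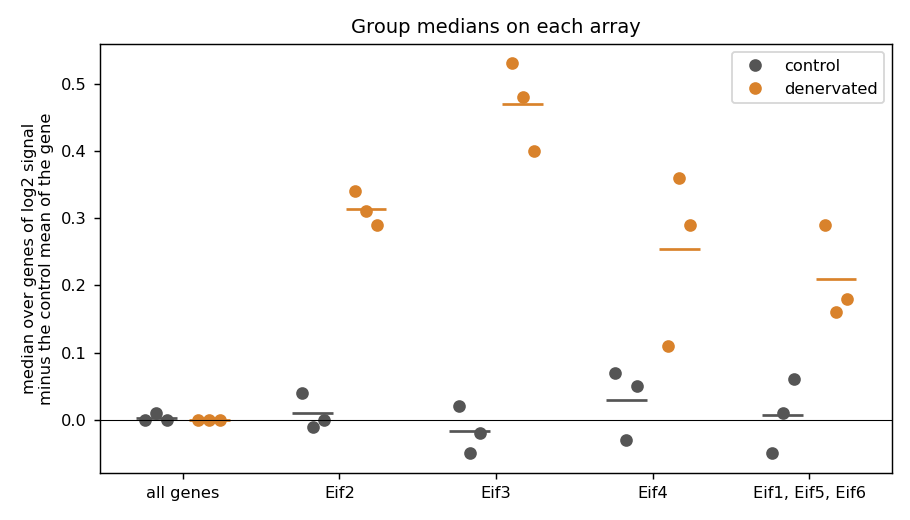
Median over genes of the log2 signal minus the control mean of the gene (y axis), for all 8740 genes and for the 4 groups of initiation factors, with 1 point per array and a line at the mean of the 3 arrays. The Eif3 medians of the denervated arrays (0.40 to 0.53) lie highest, and the Eif4 medians of the denervated arrays spread most (0.11 to 0.36).

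Most eIF3 subunits with a measurable signal rose together. Eif3l, the subunit with the largest rise, gave log2 signals of 12.97, 13.11 and 12.97 in denervated muscle and 12.30, 12.21 and 12.38 in control muscle. Its level was 1.65-fold higher (log2 fold change 0.72 ± 0.11, SE, n = 3 per group, adjusted p = 0.00108), and its other probe gave 0.65 (adjusted p = 0.00377). Eif3b encodes the subunit that, with eIF3a, forms a scaffold of the complex. It read 10.54, 10.63 and 10.56 after denervation against 9.66, 9.99 and 9.98 in the controls, a change of 0.70 ± 0.13 (adjusted p = 0.00261). The lowest control value stood apart from the other 2, yet every denervated value lay above all controls. The other Eif3b probe, dim at log2 signals of 6.28, 6.42 and 5.93 in the controls, gave 0.53 (adjusted p = 0.0274).

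Eif3c, a core subunit that contacts eIF1 and eIF5, was measured at 10.73, 10.55 and 10.85 in denervated and 10.05, 9.95 and 10.14 in control muscle. The difference was 0.67 ± 0.12 (adjusted p = 0.00277). Eif3k, a small peripheral subunit that pairs with eIF3l, was at 10.56, 10.51 and 10.12 against 9.76, 9.88 and 9.58, a change of 0.66 ± 0.15 (adjusted p = 0.00819). The third denervated sample was the lowest of its group but still exceeded the highest control. Eif3i, a WD-repeat subunit, had log2 signals of 14.65, 14.58 and 14.42 after denervation and 14.09, 14.11 and 13.98 in the controls. Its 3 probes rose by 0.49 (adjusted p = 0.00909), 0.43 (adjusted p = 0.0119) and 0.32 (adjusted p = 0.0428). The first of these, ± 0.12, is the probe that represents the gene.

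The remaining rises of eIF3 were smaller. Eif3d, the subunit able to bind the cap of some mRNAs, was at 11.67, 11.66 and 11.64 in denervated and 11.35, 11.18 and 11.08 in control muscle (0.45 ± 0.12, adjusted p = 0.0133). Eif3a, the largest subunit, was at 11.31, 11.31 and 11.46 against 11.05, 10.96 and 11.09 (0.33 ± 0.11, adjusted p = 0.043). The call of Eif3a was lost whichever 1 of the 6 arrays was left out. The adjusted p then lay between 0.0598 and 0.118 and the change between 0.28 and 0.36, and its second kept probe gave 0.25 (adjusted p = 0.373).

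Eif3j1 went the other way. It encodes eIF3j, a loosely attached subunit that binds near the mRNA channel of the small ribosomal subunit. The log2 signals were 8.98, 9.24 and 9.18 in denervated muscle and 10.12, 9.84 and 9.94 in control muscle, so that all denervated values lay below all controls. The level was 1.78-fold lower (log2 fold change -0.83 ± 0.13, adjusted p = 0.00102). The mouse has a near-identical copy, Eif3j2, which was not analysed here and may share signal with this probe.

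Eif3f and Eif3h, which encode the pair of subunits with an MPN domain, did not pass the test. Eif3f was at 13.67, 14.13 and 13.90 in denervated and 13.63, 14.13 and 13.61 in control muscle, with overlapping groups (0.11 ± 0.18, adjusted p = 0.646). Eif3h overlapped as well, at 7.47, 7.15 and 7.19 against 7.39, 7.03 and 7.19 (0.07 ± 0.14, adjusted p = 0.739). The probes of Eif3e and Eif3m were not kept. Eif3e was above background on 0 arrays, and Eif3m on 1 denervated and 0 control arrays. A further subunit gene, Eif3g, was not analysed here.

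The eIF2B subunits, which form the exchange factor that recharges eIF2, moved upward or did not pass the test. Eif2b4 encodes the delta subunit of the regulatory part of eIF2B. Its log2 signals were 12.49, 12.49 and 12.47 in denervated muscle and 11.62, 11.50 and 11.43 in control muscle. The denervated values lay within a much narrower span than the distance to the controls, and the level was 1.96-fold higher (0.97 ± 0.11, adjusted p = 0.000189). Among the members only Eif4a1 rose more.

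Eif2b5 encodes the catalytic epsilon subunit. It was at 12.63, 12.54 and 12.49 after denervation and 12.21, 11.91 and 12.20 in the controls (0.45 ± 0.13, adjusted p = 0.0191). Its other probes gave 0.30 (adjusted p = 0.046) and 0.11 (adjusted p = 0.49), so that 2 of 3 probes were called. The call was lost without denervated sample 1 (adjusted p = 0.0665), denervated sample 2 (0.0555) or control sample 2 (0.0584), with changes of 0.35 to 0.46. Eif2b2, the beta subunit, changed by 0.27 ± 0.11 (adjusted p = 0.0869) with all denervated values above all controls. Eif2b1, the alpha subunit, changed by 0.05 ± 0.12 (adjusted p = 0.754).

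The subunits of eIF2 itself did not move in 1 direction. Eif2s2 encodes the beta subunit, which contacts eIF5 and the initiator tRNA. It had log2 signals of 12.60, 12.56 and 12.65 in denervated muscle and 13.04, 13.06 and 13.05 in control muscle, 2 tight groups that did not overlap. The level was 1.36-fold lower (-0.45 ± 0.10, adjusted p = 0.00864), and the other probe also gave -0.45 (adjusted p = 0.0174). With the arrays set to 1 median over all probes the fall of Eif2s2 was not called (adjusted p = 0.15).

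The gamma subunit, which binds GTP, has an X-linked and a Y-linked copy in the mouse. The Y-linked Eif2s3y was at 11.60, 11.67 and 11.80 against 11.28, 11.19 and 11.29 (0.44 ± 0.11, adjusted p = 0.0135). The X-linked Eif2s3x was at 11.56, 11.44 and 11.43 against 11.21, 10.84 and 11.31 (0.36 ± 0.15, adjusted p = 0.0776) and passed the test only without control sample 3 among the arrays left out (adjusted p = 0.0477). The changes of the 2 copies differed by 0.08 within an array (exact two-sided permutation test over samples, p = 0.7, adjusted p = 0.7 over 6 pairs of members compared). With 3 against 3 samples the smallest p of this test is 0.1, so it could not have shown a difference at 0.05. The difference was smaller than its spread between arrays (SD 0.17 in denervated and 0.20 in control muscle), although only Eif2s3y was called. Eif2d, which can deliver tRNA to the ribosome without GTP, changed by 0.25 ± 0.12 (adjusted p = 0.123). The genes of the alpha subunit of eIF2 and of the gamma subunit of eIF2B were not analysed here.

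In the Eif4 group, calls differed between related genes. Eif4a1, which encodes an eIF4A helicase, had the largest change of all members. Its log2 signals were 13.81, 13.84 and 13.95 in denervated muscle and 12.49, 12.67 and 12.51 in control muscle. The level was 2.48-fold higher (1.31 ± 0.11, adjusted p = 4.13e-05), and the second probe rose by 1.49 ± 0.12 (adjusted p = 2.72e-05). The rise was called under each of the 20 alternative settings tried, with a log2 fold change of 1.21 to 1.48.

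Eif4a2 encodes the close paralog of that helicase. Its log2 signals were 15.04, 15.19 and 15.18 in denervated and 14.91, 14.60 and 14.88 in control muscle. The groups did not overlap, but the change of 0.34 ± 0.13 did not pass the test (adjusted p = 0.0616), and the other probe gave 0.10 (adjusted p = 0.62). It passed under 7 of the 20 alternatives. On each array, the log2 signal of Eif4a1 relative to its control mean minus that of Eif4a2 was 1.01, 0.90 and 1.01 after denervation and -0.18, 0.31 and -0.13 in the controls. The change of Eif4a1 was larger by 0.97 without overlap between groups, but this difference could not pass the threshold of 0.05 (exact two-sided permutation test, p = 0.1, the smallest p that 3 against 3 samples allow, adjusted p = 0.12).

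The promoter of Eif4a1 is shown because this gene had the largest change of all members, and that of Eif4a2 because it is the closest relative. Each is the 250 bases before the start of the gene in RefSeq (GRCm38.p6), read 5′ to 3′ on the strand of the gene. Capitals mark an E-box, CACGTG, or a GC box, GGGCGG on either strand, which reads CCGCCC on the other. The 2 motifs do not overlap in these windows. The first lies at chr11:69672424-69672673 on the minus strand and the second at chr16:23107218-23107467 on the plus strand.
Eif4a1: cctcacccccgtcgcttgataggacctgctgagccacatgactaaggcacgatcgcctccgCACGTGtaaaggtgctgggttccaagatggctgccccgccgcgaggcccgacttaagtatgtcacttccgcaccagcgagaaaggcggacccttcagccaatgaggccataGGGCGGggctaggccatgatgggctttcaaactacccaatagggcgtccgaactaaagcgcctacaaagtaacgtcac
Eif4a2: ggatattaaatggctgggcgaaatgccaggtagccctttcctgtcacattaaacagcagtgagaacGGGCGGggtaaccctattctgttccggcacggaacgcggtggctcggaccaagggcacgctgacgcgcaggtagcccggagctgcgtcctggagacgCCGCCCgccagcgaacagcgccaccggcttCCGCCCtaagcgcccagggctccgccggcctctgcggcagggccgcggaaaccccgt
The Eif4a1 window held 1 E-box, which begins 189 bases before the start of the gene, and 1 GC box. The Eif4a2 window held 0 E-boxes and 3 GC boxes. Its content of G and C was 66.4%, against 58.8% for Eif4a1. Some genes have several windows, and a gene was counted if any of them held the motif. An E-box was found in 6.86% of 27025 genes (6.02% of 32851 windows) and in 7 of the 28 tested members with a window (Eif1b, Eif3f, Eif3k, Eif4a1, Eif4e, Eif4h and Eif5a), of which 2 were among the 12 higher members with a window. A GC box was found in 35.4% of all genes (32.7% of the windows), in 22 of the 28 members and in 9 of the 12 higher ones. The 27025 genes were not limited to those with signal in these samples, as the members were, so the shares are not of like sets. These matches describe the letters only.

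The calls of the cap-binding members went both ways. Eif4e2 encodes 4EHP, a relative of eIF4E that binds the cap without recruiting the scaffold eIF4G and is known as a repressor of translation. Its log2 signals were 10.17, 9.89 and 10.15 in denervated muscle and 9.30, 9.18 and 9.27 in control muscle, a 1.76-fold rise (0.82 ± 0.12, adjusted p = 0.00087). A second probe rose by 0.76 (adjusted p = 0.00323). This probe was dim in the controls, where its detection p, ranked against negative control beads, was 0.0388, 0.0414 and 0.0138. The remaining probe, with a detection p of 0.00125 or less on each array, gave -0.02 (adjusted p = 0.917).

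Eif4e3, another member of the cap-binding family, fell. It was at 10.37, 10.61 and 10.45 in denervated muscle and 11.56, 11.34 and 11.05 in control muscle. The controls spread more than the denervated samples but lay above all of them. The level was 1.79-fold lower (-0.84 ± 0.15, adjusted p = 0.0024), and the other probes fell too (-0.66, adjusted p = 0.00242, and -0.60, adjusted p = 0.00406). Eif4e, the canonical cap-binding factor, was dim: its probe was above background on 1 denervated and 2 control arrays, with log2 signals of 5.61, 5.51 and 5.77 against 6.05, 5.59 and 5.92 (-0.23 ± 0.15, adjusted p = 0.25). At this signal a change of Eif4e could not be judged.

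Within arrays, the change of Eif4e2 exceeded that of Eif4e3 by 1.66, with values of 1.86, 1.34 and 1.76 after denervation and -0.19, -0.10 and 0.29 in the controls (exact two-sided permutation test, p = 0.1, adjusted p = 0.12). The groups did not overlap, but this p is again the smallest possible and does not pass the threshold. No difference from Eif4e is given, because its probe was mostly not above background.

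Of the helicase cofactors, Eif4b rose. Its log2 signals were 8.50, 8.64 and 8.75 in denervated and 7.98, 7.68 and 8.24 in control muscle (0.66 ± 0.16, adjusted p = 0.00968). Eif4h was at 13.11, 13.22 and 13.14 against 12.66, 12.94 and 12.89, groups that did not overlap, but at 0.33 ± 0.12 it did not pass the test (adjusted p = 0.0542), while it did under 9 of the 20 alternatives. Of the other Eif4 members, Eif4a3, a helicase of the exon junction complex, changed by 0.18 ± 0.17 (adjusted p = 0.409). Eif4enif1, the eIF4E transporter, changed by 0.08 ± 0.16 (adjusted p = 0.709). Eif4g2, a relative of eIF4G that lacks the eIF4E site, changed by -0.25 ± 0.12 (adjusted p = 0.132), with 0.14 on its other probe (adjusted p = 0.52). Both probes of Eif4e1b, an oocyte form of eIF4E, were above background on 0 arrays. The eIF4G genes Eif4g1 and Eif4g3 were not analysed here.

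**Figure D3:**
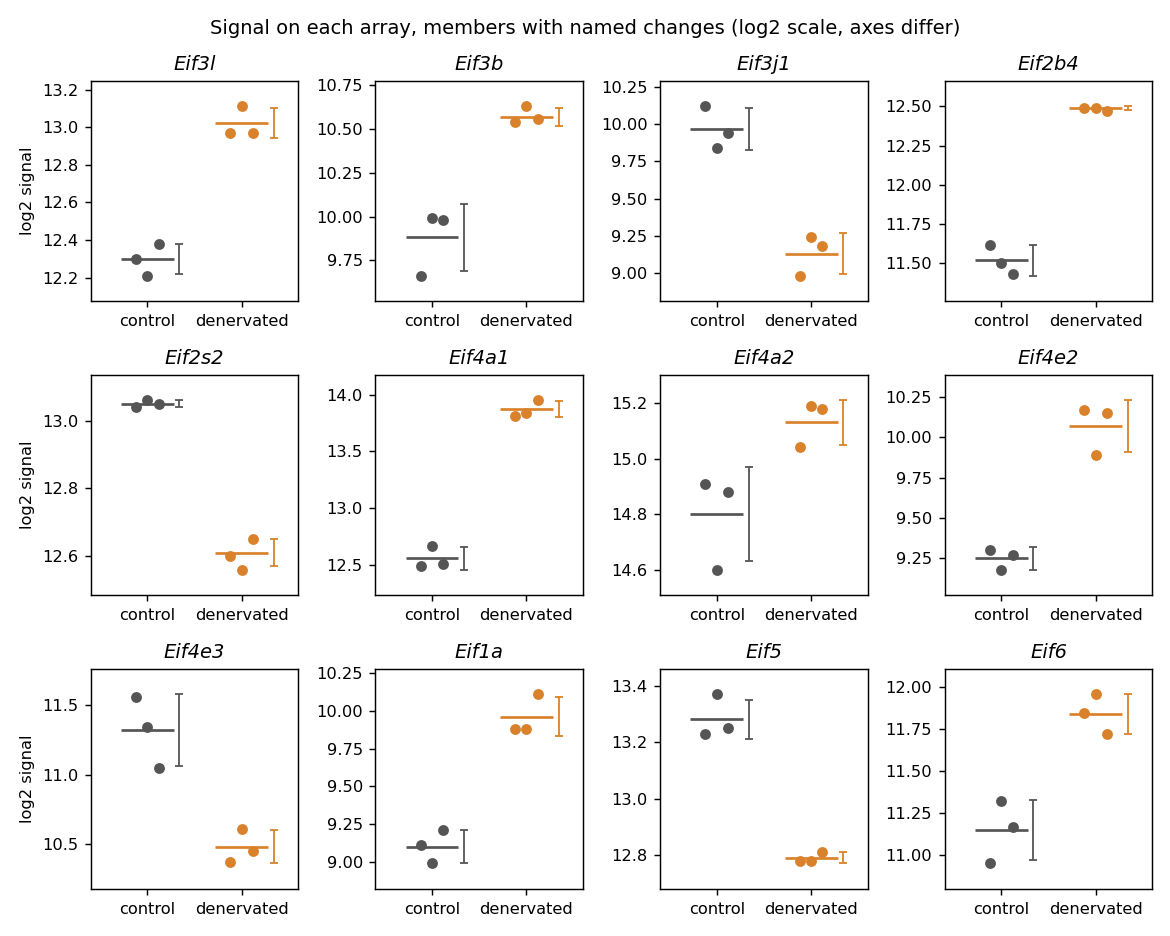
Normalized log2 signal (y axis, a separate scale per gene) on each control and denervated array for 12 initiation factors named in the text, 1 point per array, with a line at the group mean and a bar of ± 1 SD beside it (n = 3 per group). In each panel the 3 denervated points do not overlap the 3 control points. Eif4a1 is separated most (13.81 to 13.95 against 12.49 to 12.67), and Eif4a2 least (15.04 to 15.19 against 14.60 to 14.91).

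Among the factors of scanning, subunit joining and late steps, Eif1a and Eif6 rose and Eif5 fell. Eif1a encodes eIF1A, which helps the small subunit to scan for the start codon. It was at 9.88, 9.88 and 10.11 in denervated and 9.11, 8.99 and 9.21 in control muscle, a 1.81-fold rise (0.85 ± 0.12, adjusted p = 0.000714). Eif6, the factor that holds the large subunit apart, was at 11.85, 11.96 and 11.72 against 10.95, 11.32 and 11.17 (0.69 ± 0.13, adjusted p = 0.00337). For both genes the lowest denervated value was above the highest control.

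Eif5 encodes the GTPase activator that acts on eIF2. The probe that represents it gave 12.78, 12.78 and 12.81 in denervated muscle and 13.23, 13.37 and 13.25 in control muscle (-0.49 ± 0.11, adjusted p = 0.00599). Its other probes gave 0.10 (adjusted p = 0.536) and -0.03 (adjusted p = 0.899), so the fall was read by 1 of 3 probes. With the mean of all its probes the change was -0.14 (adjusted p = 0.324), and the call was also lost with 1 median over all probes.

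The remaining members of these families did not pass the test. Eif5a, the hypusine-bearing factor that acts in elongation, changed by 0.29 ± 0.13 (adjusted p = 0.0935), and without control sample 1 by 0.40 (adjusted p = 0.0358). Eif1b, a relative of eIF1, changed by 0.12 ± 0.19 (adjusted p = 0.637), with its lowest value, 11.11, in control sample 1. Eif1ad, whose product carries an eIF1A-like domain, changed by -0.28 ± 0.11 (adjusted p = 0.0779), with all denervated values below all controls after normalization. With 1 median over all probes its change was -0.01 (adjusted p = 0.94), while 3 of the 20 alternatives called it lower. Eif1a and Eif1b encode different factors, and the difference of their changes is not read here. Eif1ax, Eif5a2 and Eif5b were above background on 0 arrays, so the paralogs Eif1a and Eif1ax, and Eif5a and Eif5a2, could not be set side by side.

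Several probes were kept for 16 members, and they differed in part. All kept probes were called in the same direction for Eif2s2, Eif3b, Eif3i, Eif3l, Eif4a1 and Eif4e3. For Eif2b5, Eif3a, Eif4e2 and Eif5 the probe that represents the gene was called and at least 1 other was not. The other 6 had no called probe. Beside those given above, the second probes of Eif2b1, Eif2d, Eif4enif1 and Eif5a gave 0.22 (adjusted p = 0.251), 0.40 (adjusted p = 0.0807), 0.15 (adjusted p = 0.403) and -0.01 (adjusted p = 0.963). The files used here do not pair the probes with transcript isoforms.

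**Figure D4:**
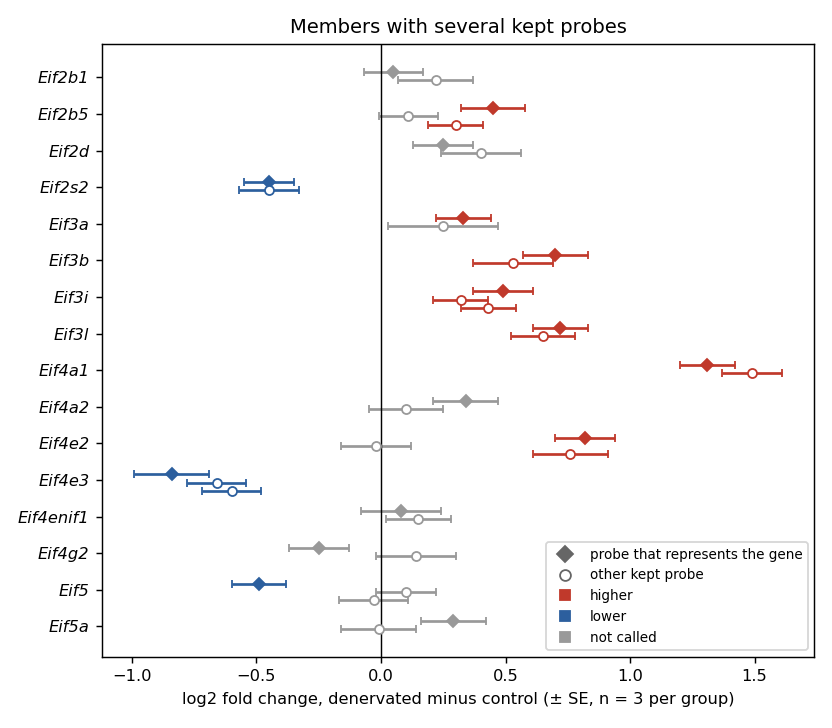
Log2 fold change (x axis, denervated minus control, n = 3 per group, bars of ± 1 standard error) of every kept probe of the 16 initiation factors with several kept probes. Filled diamonds are the probes that represent the genes and open circles the others, coloured by call. The probes of Eif4a1 (1.31 and 1.49) and Eif4e3 (-0.84, -0.66 and -0.60) lie together, and those of Eif4e2 (0.82, 0.76 and -0.02) and Eif5 (-0.49, 0.10 and -0.03) do not.

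Other genes of translation were read from a list of regulators, elongation, termination, poly(A)-binding and accessory initiation genes. Of the 35 tested, 10 were higher, 5 were lower and 20 did not pass (42.9% changed, against 43.8% of all genes), and the median log2 fold change was 0.18. The share of changed genes in this list was thus near that of all genes. Of the 12 regulators of initiation, 5 were higher, 1 was lower and 6 did not pass.

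The largest change in the list was that of Mknk2, a kinase that phosphorylates eIF4E. Its log2 signals were 15.17, 15.31 and 15.05 in denervated and 12.35, 12.41 and 12.56 in control muscle, a 6.66-fold rise (2.74 ± 0.12, adjusted p = 1.32e-06). The related kinase gene Mknk1 was 1.45-fold lower (-0.54 ± 0.15, adjusted p = 0.0181). Eif4ebp1, whose product blocks the access of eIF4G to eIF4E, was at 12.41, 12.27 and 12.45 against 10.92, 11.01 and 11.29, a 2.47-fold rise (1.30 ± 0.13, adjusted p = 0.000105). Thus a gene for a kinase of eIF4E and a gene for an inhibitor of eIF4E both rose. The related inhibitor gene Eif4ebp2 changed by -0.42 ± 0.18 and did not pass the test (adjusted p = 0.0944).

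Ppp1r15a, which encodes the phosphatase subunit that reverses phosphorylation of eIF2, was at 9.79, 9.87 and 9.77 in denervated and 8.51, 8.72 and 8.89 in control muscle (1.11 ± 0.13, adjusted p = 0.000215). Of the kinases that phosphorylate eIF2, Eif2ak1 changed by -0.14, Eif2ak2 by 0.26 and Eif2ak3 by 0.21, and none of these 3 passed the test. The other regulators that rose were Ppp1r15b, a relative of Ppp1r15a (adjusted p = 0.00107), and Pdcd4, whose product inhibits eIF4A (1.63-fold, adjusted p = 0.00324). The probe of Ppp1r15b was above background on 3 denervated arrays but only 1 control array, with log2 signals of 6.71, 6.54 and 6.89 against 5.97, 5.70 and 5.49, so the size of its rise is not given.

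Outside initiation, Eef2k, the kinase that inhibits elongation factor 2, was 2.12-fold lower (-1.09 ± 0.13, adjusted p = 0.000273). It was 1 of 2 called among 7 elongation genes. Eef1a2 was not called by the probe that represents it (-0.21, adjusted p = 0.172). Its other probes were called lower (-0.72, adjusted p = 0.00206, and -0.38, adjusted p = 0.0215). Of 5 termination and recycling genes, Gspt1, the release factor eRF3a, rose by 0.79 ± 0.15 (adjusted p = 0.00291). Denr, whose product acts with that of Mcts1 in recycling, fell by 0.79 (adjusted p = 0.00344), whereas Mcts1 rose by 0.49 (adjusted p = 0.00569).

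The cytoplasmic poly(A)-binding proteins join the tail of an mRNA to eIF4G. Pabpc4 was at 9.80, 10.34 and 10.11 in denervated and 11.07, 11.02 and 11.18 in control muscle (-1.01 ± 0.15, adjusted p = 0.000869). Pabpc1 was at 10.75, 10.91 and 10.83 against 10.05, 9.64 and 10.04 (0.92 ± 0.14, adjusted p = 0.00104), with 0.46 (adjusted p = 0.0209) and -0.26 (adjusted p = 0.332) on its other probes. Of 6 helicases and cofactors, only Dhx29, a helicase of the scanning ribosome, was called (0.59, adjusted p = 0.0165).

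The tissue and the lesion were checked with marker genes. Of 6 skeletal muscle markers (Acta1, Ckm, Mb, Myh4, Tnnt3 and Pvalb) 6 were above background on all arrays and 0 passed the test. Their log2 signals, 15.35 to 16.10, lay near the top of the scale, so a change of these genes could not be judged well, and Myh4 (-0.28) and Tnnt3 (-0.16) were lower in every denervated sample than in any control. The denervation genes Chrna1, Chrng, Myog and Gadd45a rose by 3.48 to 5.26. All 6 macrophage markers tested were higher (Lyz2, Tyrobp, C1qb, C1qa, Adgre1 and Cd52), with a summed normalized signal of 5930 to 7520 on the denervated and 2290 to 2430 on the control arrays. All 4 endothelial markers tested were lower (5520 to 5770 against 6940 to 9320), and of 3 Schwann cell markers Mbp and Pmp22 were lower and Ngfr was higher. Their part in the changes of the initiation factors was not tested, and in these whole-muscle samples a change in the number of cells of a type and a change in RNA per cell cannot be told apart. Before normalization the 95th percentile of the signal was 4000 to 4048 on the denervated and 2896 to 3022 on the control arrays, and between 11551 and 12785 probes were above background.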

How the data were processed

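Ribosomal RNA was removed from the extracted total RNA, of which about 100 ng was turned into biotinylated cRNA. This was hybridized to a mouse Illumina bead array and read in GenomeStudio, as the submitters' processing notes also name. The deposited table held for each probe a linear signal intensity averaged over beads (39 to 40 at the median), its standard error, the bead number and a detection p-value, which the authors' software ranks against negative control beads. These deposited intensity values were neither background-corrected nor normalized. The authors also deposited quantile-normalized intensity values, which correlated at 0.99947 or more with the values of the same array in the first table and served as an alternative. Genome build and probe alignment were not given in the sources used here.

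Intensities were background-corrected from the detection p-values with an offset of 16, quantile-normalized and log2-transformed (neqc, limma 3.58.1, R 4.3.3). The offset makes fold changes of dim probes too small. Probes with a detection p under 0.05 on at least 3 of 6 arrays were kept and fitted together (lmFit and eBayes), and p-values were adjusted by Benjamini-Hochberg (threshold 0.05). A gene was read from its brightest kept probe on average over the 6 arrays. Levels were not compared between probes. The bead error of the members' probes was 6.04% of the signal at the median and 14.2% at most. The number of arrays limits the precision. Replicates correlated at 0.9878 to 0.9939. The script was tested on simulated data. Differences between members used an exact permutation test over samples, adjusted over 6 pairs, of which the 2 with the dim Eif4e and that of Eif1a with Eif1b are not read.

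The platform annotation gave 1 gene for 23978 probes and none for 1719, and the symbols of all 34 tested members matched RefSeq, from which the promoters came. Every member is named. Members past the threshold with groups that do not overlap have their values on each array. Members with several kept probes are given with every kept probe. Of other translation genes those with the largest changes are named. Relatives of these, and Eef1a2 for its probes, were added after their values were seen. The members, as a family, and the lists and alternatives were chosen with earlier results of these data known. The study's methods name Student's test among those used in the study at large and p under 0.05 for the arrays, without saying which test the arrays had. The alternatives were other background corrections, scalings, filters, tests, probe rules, the replicate number as a block and leaving out each array.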

Additional observations from a re-analysis of the deposited data

How the results depend on the processing

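Over 20 alternatives, 12 of the 19 called members kept their call in every one and no member called here changed direction. Of the 15 members not called, 6 were called in none (Eif1b, Eif2b1, Eif3f, Eif3h, Eif4enif1 and Eif4g2), and Eif4h was called in 9, Eif4a2 in 7, Eif2s3x and Eif5a in 5 each. Beside Eif3a, Eif2b5, Eif5 and Eif2s2, calls were lost for Eif3i when arrays were set to 1 median over probes above background on all 6 (adjusted p = 0.0665), and for Eif3k and Eif4b with the methods' t-test after Benjamini-Hochberg adjustment (0.0502 and 0.0579). That test called 3007 genes, and 4126 without adjustment, against 3829. With 1 median over all probes, the medians of the Eif2, Eif3 and Eif4 groups were 0.55, 0.63 and 0.39, and with the median of probes above background on all 6 arrays 0.28, 0.36 and 0.12. Relative to the median of all genes both scalings gave 0.35, 0.43 and 0.19. These 2 scalings shift each array by 1 constant, so the values had to be the same and are not a second check. Leaving out 1 array gave 0.28 to 0.35 for Eif2, 0.42 to 0.51 for Eif3 and 0.21 to 0.32 for Eif4. With the replicate block, 3794 genes and 14 higher and 4 lower members were called, the call of Eif3a being lost. Samples of the same number correlated at -0.017, 0.161 and 0.164 in their deviations. Denervated samples 2 and 3 correlated best with the control of their number, and denervated sample 1 with control sample 2 (0.132). With 3 samples per group these values cannot decide whether the numbers mark pairs. The labels do not say so either. The control was the right leg of mice lesioned on the left, so the 2 groups may share mice. The main fit and the permutation tests left the samples unpaired and took them as independent. The dim signal of Eif4e, and the 6 members not kept, limit what can be said of them.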
